A study of Callithrix jacchus with 4 samples.

Results

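The insulin-like growth factor (IGF) genes described here are the ligand IGF1, the receptor IGF1R and 5 binding protein genes, IGFBP2, IGFBP3, IGFBP4, IGFBP5 and IGFBP7. They were chosen by name, with earlier results of these data known. All 7 were among the 16383 genes listed in both tables of the series. Nuclei of the primary visual cortex (V1) of adult marmosets were profiled by droplet single-nuclei RNA sequencing. The injured cohort held 3 animals (F1619, F1565 and F1711, called injured replicates 1, 2 and 3), each giving 1 library. Their tissue was taken 7 days after injection of endothelin-1, which narrows vessels strongly enough to cause a focal ischemic stroke. It included the core and the penumbra of the lesion. The control cohort was 1 library in which nuclei of 3 uninjured animals were pooled, which leaves the variation among control animals unknown. The cohorts also differed in the protocol of nuclei isolation, the sorting of control nuclei, the facility, the sequencer and the removal of doublets, and these differences cannot be told apart from the injury in any comparison below.

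IGF1 is a secreted peptide that acts through IGF1R, a receptor tyrosine kinase which signals through the IRS adaptors, PI3 kinase and AKT and supports growth and survival of neurons and glia. The binding proteins are secreted carriers that hold IGF1 and IGF2, prolong their life in tissue and either limit or aid their access to the receptor, and proteases release the ligand from them. IGFBP7 binds IGFs weakly and is best known as a protein of the vessel wall. In the brain, IGF1 is made by subsets of interneurons, by microglia and by cells of the meninges and vessels.

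The authors named 7 cell types, given here as they labelled them: Astro (astrocytes), Endo (endothelial cells), ExN (excitatory neurons), InN (inhibitory neurons), Microglia, OPC (oligodendrocyte precursors) and Oligo (oligodendrocytes). Each cohort was clustered alone. Transcripts were counted by unique molecular identifiers (UMIs), and a level is the number of UMIs of a gene scaled to a common total of UMIs in that cell type and library (CPM). The libraries held 35737777 to 48722394 UMIs in the injured replicates and 22832703 in control, and 125 of 38022 cell barcodes occurred in 2 libraries. The median nucleus held 3531 to 4504.5 UMIs in the injured replicates and 2117 in control. Control counted 181 Endo, 129 Microglia and 171 OPC nuclei, and the low number of UMIs there limits those comparisons. The defining markers of Astro, ExN, InN, OPC and Oligo were present in both cohorts at their own type. Endo and Microglia were mixtures that differed between the cohorts, and their makeup is given with their results.

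The 7 genes had different places of highest level in the injured animals. IGF1 was highest in InN, IGFBP4, IGFBP5 and IGFBP7 in Endo, and IGFBP2 and IGFBP3 in OPC and Endo, while IGF1R was spread over neurons, Oligo, OPC and Endo. Against control, 10 of the 49 combinations of gene and cell type were called. Of these, 8 were higher in the injured animals and 2 were lower. A call needed an adjusted p below 0.01 in edgeR's quasi-likelihood test, a natural-log fold change beyond 0.25 and detection in 10% or more of the injured or the control nuclei. Endo held 5 of the calls, InN 2 and Astro, ExN and Oligo 1 each. The Endo calls include IGFBP7, a gene the authors used to name that cluster. Among all genes, the same call was made for 6.18% of those tested in Endo, 3.41% in InN, 1.50% in Astro, 3.85% in ExN, 0.774% in Oligo, 0.0697% in OPC and 0% in Microglia. The median log2 fold change over the 7 genes was 1.91 in Endo, 1.61 in Astro, 1.31 in ExN, 1.19 in InN, 0.92 in Oligo and 0.78 in OPC, where the median of all genes lay between 0.00 and 0.26. In Microglia it was 1.71, beside 0.42 for all genes. With those of the 7 genes at 0 in control set to their bound it was -0.02, a step not applied to all genes.

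**Figure D1:**
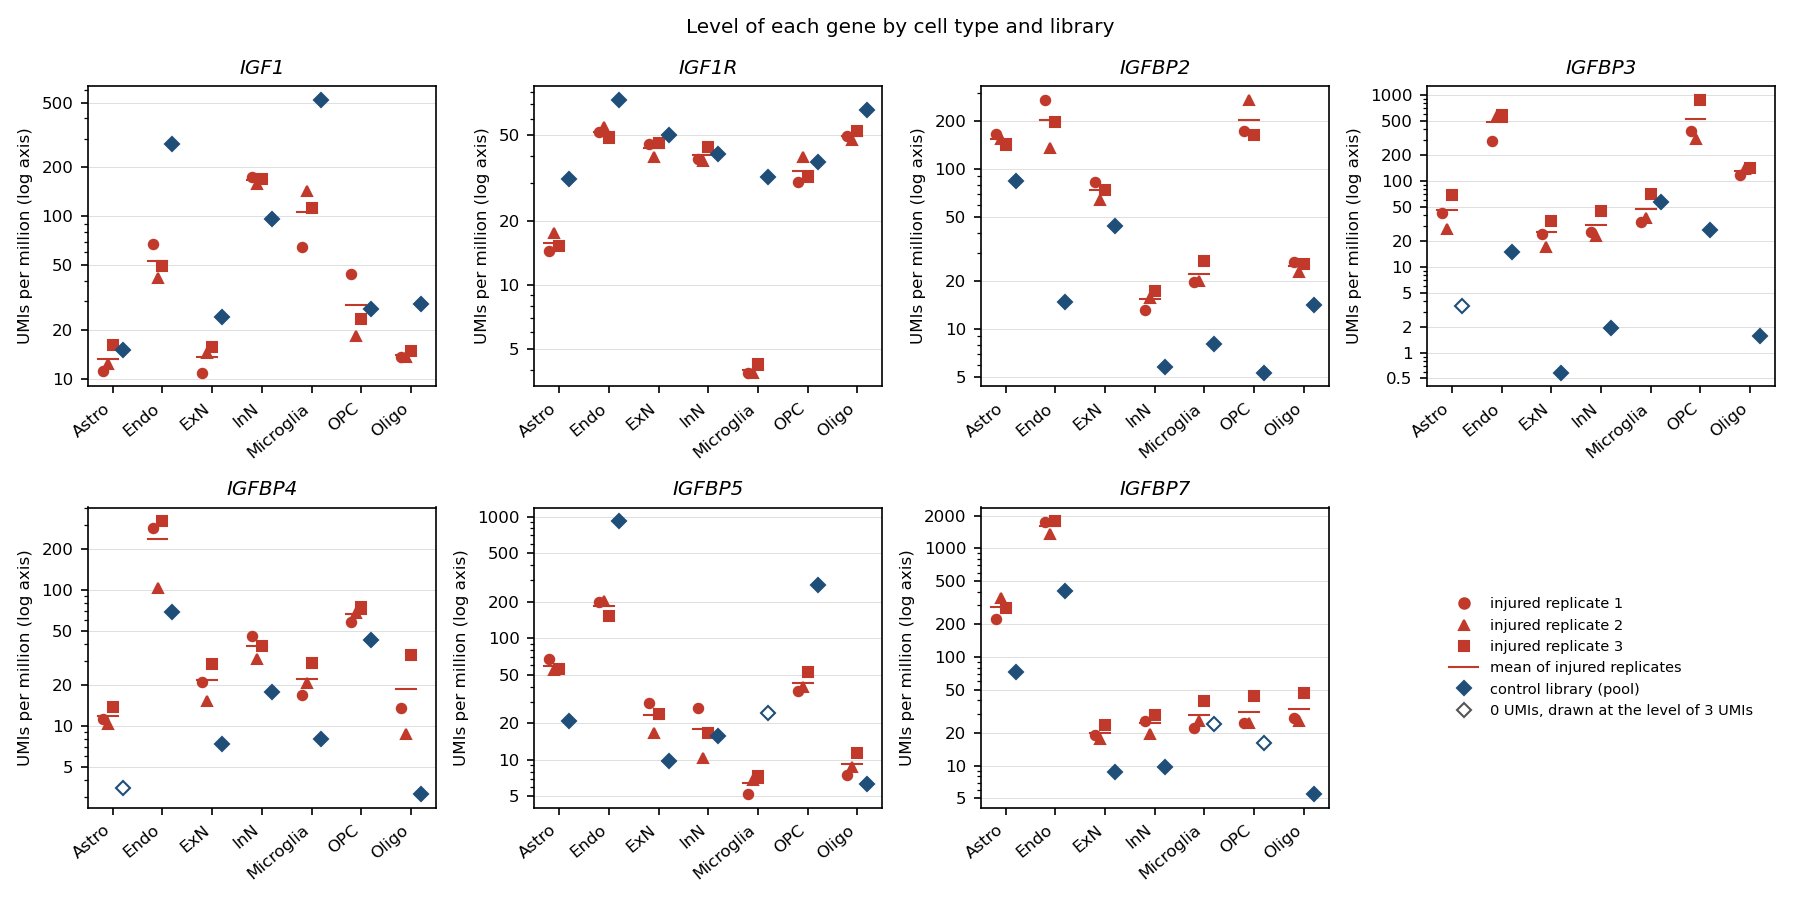
Level of the 7 genes (CPM, log axis) in the 7 cell types. Each red mark is 1 injured animal, the red line their mean, and the blue diamond the pooled control library (open where it held 0 UMIs, drawn at the level of 3 UMIs). IGF1 in Endo was 41.7 to 67.8 in the injured animals and 279.3 in control, while IGFBP3 in Oligo was 117.2 to 139.1 and 1.6.

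IGF1, the ligand, was the one gene called higher in one cell type and lower in another. In InN it stood at 174.5, 158.8 and 168.8 CPM in injured replicates 1, 2 and 3 and at 96.3 CPM in control (297 UMIs). In Endo it stood at 67.8, 41.7 and 49.2 CPM against 279.3 CPM (57 UMIs). All injured animals lay above control in InN and below it in Endo. The log2 fold change was 0.90 (SE 0.15, adjusted p = 0.00486, edgeR) in InN and -2.29 (SE 0.30, adjusted p = 0.00196, edgeR) in Endo. The injury effect was 3.20 larger on the log2 scale in InN than in Endo (SE 0.59, adjusted p = 0.0025, edgeR with library as a block), a contrast chosen after the values were seen, for which 2.33% of all genes passed. Without injured replicate 3 this difference was 3.04 and no longer called (adjusted p = 0.0277, edgeR).

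The InN call for IGF1 was lost when injured replicate 1 (0.89, adjusted p = 0.0168, edgeR) or 3 (0.89, adjusted p = 0.0125, edgeR) was left out, and at 1000 UMIs per nucleus (0.64, adjusted p = 0.0488, edgeR). The share of InN nuclei with an IGF1 UMI was 37.5% ± 3.23 (SD, n = 3) in the injured animals and 22.0% in control (95% interval 19.4 to 24.6), and at 1000 UMIs per nucleus it was 14.6% ± 1.16 and 11.7% (9.72 to 14.0). At equal depth the gap between the cohorts was thus close to the counting error of the control share.

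Within InN, IGF1 followed the interneuron classes. In nuclei with a UMI of VIP and none of SST, LAMP5 or PVALB it reached 557.1, 696.3 and 635.5 CPM in the injured replicates and 583.7 CPM in control (25 UMIs). In LAMP5 nuclei it was 485.8, 366.8 and 270.7 CPM against 191.7 CPM in control (25 UMIs). SST nuclei held 84.5 to 126.9 CPM against 85.0 CPM, and PVALB nuclei, the fast-spiking class, 33.6 to 58.4 CPM against 33.2 CPM. The order VIP, LAMP5, SST, PVALB held in each of the 4 libraries. VIP nuclei made up 6.65% to 9.83% of InN in the injured animals and 1.68% in control (17 nuclei), while PVALB nuclei made up 10.8% to 18.0% and 13.4%. These shares were not taken at equal depth, with a median of 2441 UMIs in control InN and 4846.5 to 6628 in the injured animals. Of 1011 control InN nuclei, 786 had none of these markers and held 99.7 CPM, against 113.8 to 135.4 CPM in such nuclei of the injured animals. The VIP share moved with the InN result, and its part in the result was not tested.

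In Endo, the makeup of the cluster moved with the lower IGF1. Summed fibroblast markers (collagens, DCN, LUM and LAMA2) lay at 1394 to 2676 CPM in the injured animals and 5488 CPM in control. Summed endothelial markers lay at 2655 to 3497 CPM against 848 CPM, and summed mural markers at 747 to 1099 CPM against 220.5 CPM. Nuclei with a fibroblast marker and no endothelial or mural one made up 53.0% of control Endo and 10.5% to 15.0% of injured Endo. The depth behind these shares was unequal, with a median of 922 UMIs in control Endo and 1671 to 1913.5 in the injured animals. In the fibroblast-marker nuclei alone (584 injured, 96 control) IGF1 was at 221.8, 218.8 and 133.7 CPM in the injured replicates and 282.1 CPM in control, and it was not called (log2 fold change -0.51, SE 0.41, adjusted p = 0.465, edgeR, 1.83% of genes called). In Endo nuclei without a fibroblast UMI (2641 injured, 46 control) it was called lower (-3.61, SE 0.49, adjusted p = 0.00715, edgeR, 0.495% of genes called), with 15 control UMIs behind it. All 15 came from 17 control nuclei with none of the vascular markers (797.4 CPM). The 27 control nuclei with endothelial markers alone held 0 UMIs, and the injured ones held 14.6 to 24.2 CPM. In those control nuclei 1 UMI made 44.6 CPM, so control could not resolve that level. Both subsets were chosen after the values were seen. Nuclei with markers of several kinds (1835 injured, 40 control) held IGF1 at 21.8 to 60.0 CPM against 214.8 CPM (12 UMIs). Each injured animal lay below control there, which was not tested.

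Microglia held IGF1 at 64.6, 143.4 and 111.9 CPM in the injured animals and 522.2 CPM in control (65 UMIs). All injured animals lay below control, but the difference was not called (-2.04, SE 0.51, adjusted p = 0.0998, edgeR). In this cell type edgeR called 0 of 13470 genes, with 2857 of them and 3 of the 7 genes below an unadjusted p of 0.05, while DESeq2 called 303 genes, IGF1 among them. The makeup again differed. Nuclei with CD163 or MRC1, markers of border and infiltrating macrophages, and no P2RY12, a marker of resident microglia, were 26.1% to 32.0% of the injured Microglia and 5.43% of the control ones. These shares were not taken at equal depth, with a median of 793 UMIs in control Microglia and 2428 to 3930 in the injured animals. Of 129 control nuclei, 96 had neither marker. Summed macrophage markers lay at 1474 to 2799 CPM against 1044.5 CPM in control, with 3 of 6 higher in each injured animal. Summed microglia markers lay at 2452 to 2709.5 CPM against 1784 CPM, with 1 of the 4 measured higher in each. In the injured replicates IGF1 was at 212.9, 524.4 and 438.4 CPM in P2RY12 nuclei and at 22.4, 55.5 and 24.7 CPM in CD163 or MRC1 nuclei, and the 23 control nuclei with P2RY12 held 398.0 CPM (10 UMIs). The injured and control P2RY12 nuclei thus overlapped. The nuclei with neither marker held 84.8 to 144.4 CPM against 629.9 CPM in control.

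In the other types IGF1 was low. ExN (10.9 to 15.6 CPM, control 23.9) and Oligo (13.6 to 14.9 CPM, control 29.0) lay below control in each injured animal without a call. Astro (11.2 to 16.2 CPM, control 15.0) and OPC (18.3 to 44.3 CPM, control 26.7 on 5 UMIs) overlapped it.

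**Figure D2:**
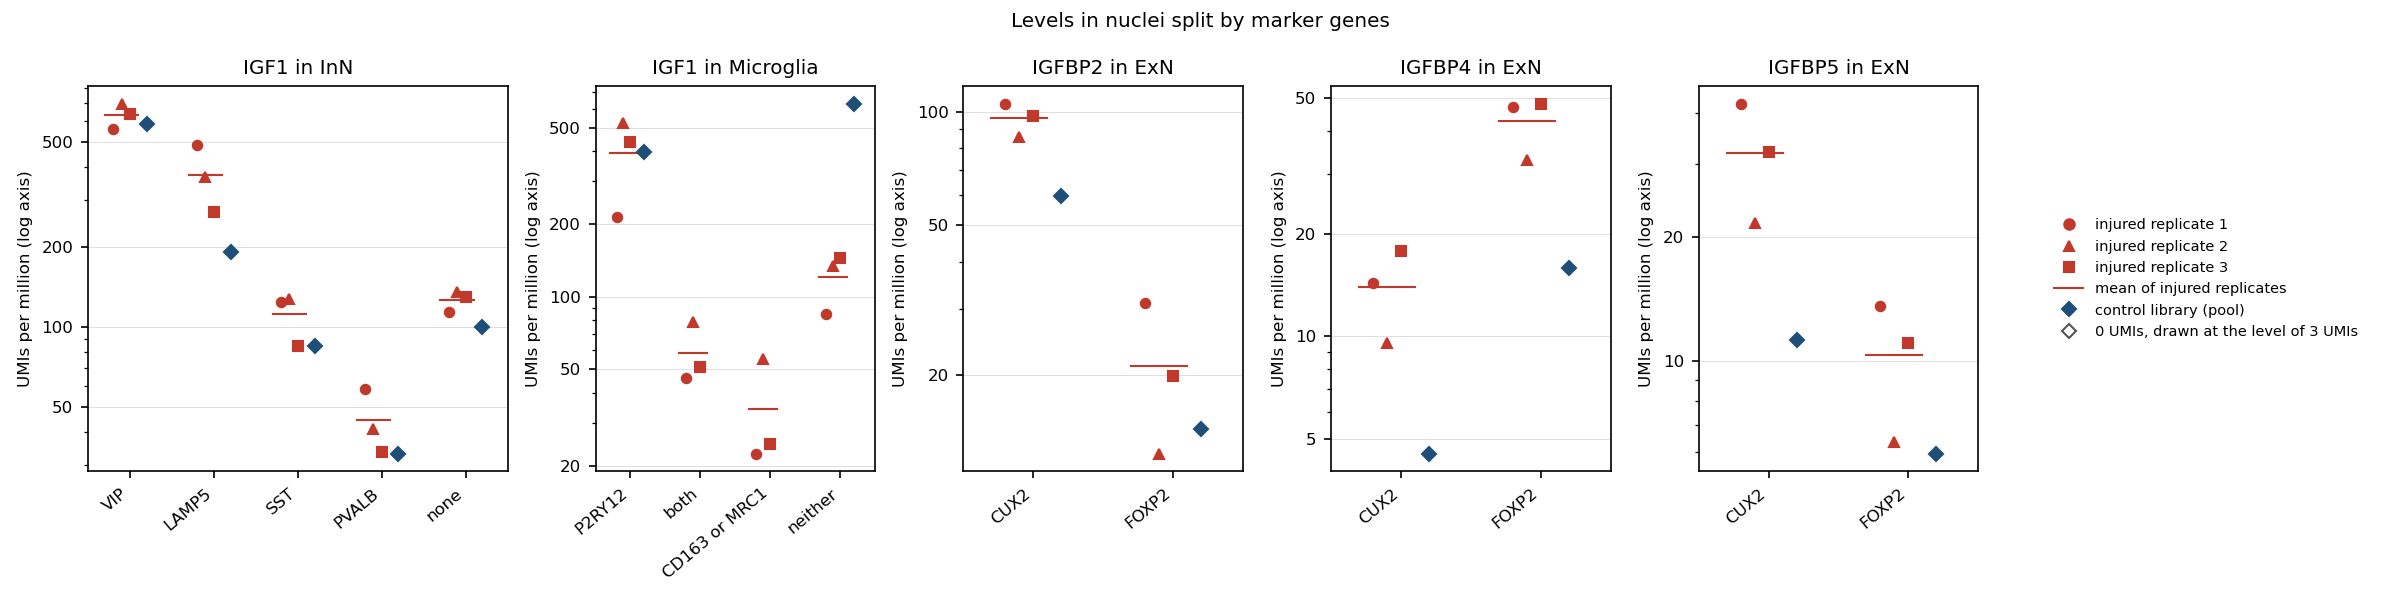
Level (CPM, log axis) in nuclei split by a UMI of one marker and none of the others, symbols as in the plot of levels by cell type, with control shown where it had at least 10 nuclei. IGF1 was higher in VIP than in PVALB interneurons and in P2RY12 than in CD163 or MRC1 nuclei, IGFBP2 and IGFBP5 were higher in CUX2 than in FOXP2 neurons, and IGFBP4 was the reverse.

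IGF1R, the receptor, was called in no cell type. Neurons held it at 38.1 to 46.1 CPM in the injured animals and at 50.1 (ExN) and 41.2 CPM (InN) in control. Oligo held 47.5 to 52.3 CPM against 65.8 CPM and Endo 48.8 to 54.6 CPM against 73.5 CPM (15 UMIs), and OPC 30.2 to 39.8 CPM against 37.4 CPM (7 UMIs). The ranges of Endo and Oligo overlapped, as did those of ExN, InN and OPC. Astro stood lower, at 14.5, 17.4 and 15.1 CPM in the injured replicates and 31.2 CPM in control (-0.87, SE 0.33, adjusted p = 0.122, edgeR). Injured Microglia were lowest, at 3.9 to 4.3 CPM, below every other type in each animal, and control Microglia held 32.1 CPM on 4 UMIs. The share of Microglia with an IGF1R UMI was 1.38% ± 0.317 (SD, n = 3) at 2428 to 3930 UMIs per nucleus, against 10.9% ± 0.331 in Endo at 1671 to 1914 UMIs.

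IGFBP3, the main carrier of IGFs in serum, was higher in the injured animals in 6 of 7 cell types and called in 4 of them. Oligo held 117.2, 135.7 and 139.1 CPM in the injured replicates and 1.6 CPM (2 UMIs) in control. Endo held 289.8, 560.1 and 577.7 CPM against 14.7 CPM (3 UMIs). OPC held 377.4, 303.4 and 877.2 CPM against 26.7 CPM (5 UMIs). No injured animal overlapped control in these types. The ratio of pooled injured to control levels was 82.9 in Oligo (95% counting interval 22.9 to 686, adjusted p = 0.00141, edgeR) and 34.5 in Endo (11.8 to 168, adjusted p = 0.00306, edgeR). In OPC the log2 fold change of 4.41 (SE 0.96) missed the threshold (adjusted p = 0.0747, edgeR), and the injured animals differed by up to 2.9-fold among themselves.

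Injured replicate 3 held the highest IGFBP3 level of the 3 animals in all 7 cell types. ExN held 24.2, 17.1 and 34.2 CPM against 0.6 CPM in control (10 UMIs), and InN held 25.6, 22.5 and 44.1 CPM against 1.9 CPM (6 UMIs). Both were called (5.52, SE 0.59, adjusted p = 0.00246 and 4.06, SE 0.60, adjusted p = 0.00275, edgeR), but the ExN call was lost without injured replicate 1 (adjusted p = 0.0196, edgeR) and without replicate 3. Astro held 41.6, 27.7 and 68.6 CPM against 0 UMIs, an at least 14.0-fold higher level that was not called (adjusted p = 0.0178, edgeR). Microglia held 33.5 to 69.2 CPM against 56.2 CPM (7 UMIs), which overlapped.

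In the injured animals the neurons held the lowest mean levels of IGFBP3 of the 7 types. The ExN and InN means (25.2 and 30.7 CPM) lay below that of Microglia (46.6 CPM), and control Microglia held 56.2 CPM on 7 UMIs against 0.59 and 1.95 CPM in control ExN and InN. The share of nuclei with an IGFBP3 UMI was 13.2% ± 4.99 in ExN, 14.3% ± 5.96 in InN and 13.1% ± 4.60 in Microglia (SD, n = 3), at median depths of 5378 to 7077, 4847 to 6628 and 2428 to 3930 UMIs. At 1000 UMIs per nucleus these became 2.77%, 3.15% and 5.02%. The ratio of IGFBP3 to IGFBP7 UMIs was 0.98 to 1.77 in ExN, InN and Microglia of the injured animals. It was 12.2 to 20.1 in OPC, 2.96 to 5.30 in Oligo, 0.08 to 0.24 in Astro and 0.17 to 0.42 in Endo. Over the whole libraries it was 0.45 to 0.62, where Endo gave 75.3% to 78.9% of the IGFBP7 UMIs. The part of transcripts free in the droplets in the neuronal values was not tested. In OPC and Oligo the shares at 1000 UMIs per nucleus were 23.0% ± 9.60 and 8.88% ± 2.59 (control 2.50% and 0.43%).

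**Figure D3:**
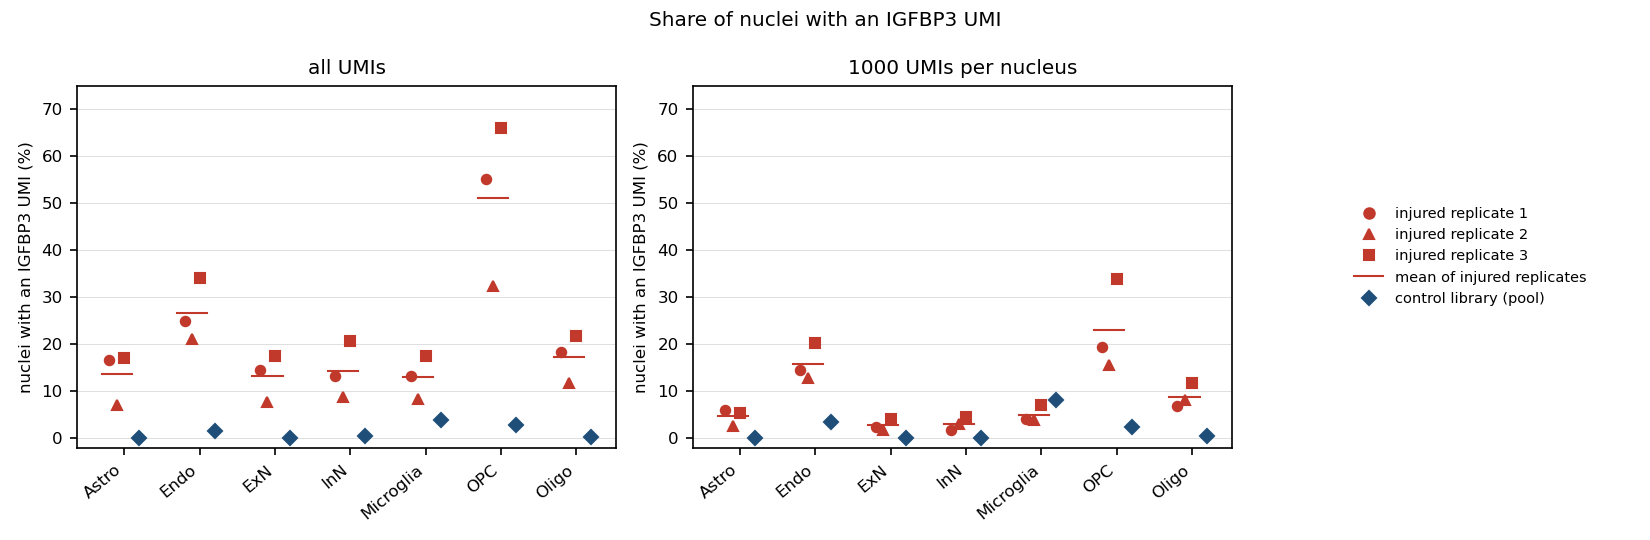
Share of nuclei with an IGFBP3 UMI (%) by cell type at full depth (left) and after thinning each nucleus to 1000 UMIs (right). Red marks are injured animals with their mean as a line, blue diamonds the control library. OPC had the highest share in both panels, 51.2% and 23.0% on average. In Microglia each injured animal lay above control at full depth. After thinning each lay below it, at 3.90% to 7.14% against 8.11% of 37 control nuclei. The exact interval of that control share, 1.70% to 21.9%, held all the injured values.

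Within OPC, IGFBP3 was present with and without GFAP, an astrocyte gene that 0 control OPC nuclei and 25.3% to 51.1% of injured OPC nuclei held. Depth differed here, with a median of 962 UMIs in control OPC and 2912 to 5628 in the injured animals. Nuclei with PDGFRA, the receptor that marks OPC, and no GFAP held 154.9, 170.9 and 727.0 CPM in the injured replicates, against 34.5 CPM in control (4 UMIs). Nuclei with both held 564.4, 601.3 and 938.8 CPM. In each animal the level was higher in the nuclei with GFAP, a split made after the values were seen. Among all OPC nuclei without GFAP, IGFBP3 stood at 159.0 to 668.2 CPM against 26.8 CPM and was not called (adjusted p = 0.161, edgeR, 0.0918% of genes called).

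In Endo, the mean IGFBP3 level of the injured animals was highest in the fibroblast-marker nuclei. It reached 350.1, 2569 and 1243 CPM there in the injured replicates, against 0 UMIs in the 96 control nuclei, an at least 51.8-fold higher level (adjusted p = 0.00464, edgeR). Replicates 1 and 2 differed by 7.3-fold in this subset. Nuclei with endothelial markers alone held 481.1, 189.0 and 579.0 CPM against 44.6 CPM in control (1 UMI). In replicate 1 they thus exceeded the fibroblast-marker nuclei.

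IGFBP2, a carrier made by astrocytes and precursor cells, was higher in each injured animal than in control in all 7 cell types, and called in Endo alone. The share of all genes with such an order is not given here. OPC held 173.0, 270.1 and 162.4 CPM against 5.3 CPM (1 UMI), Endo 271.3, 134.7 and 197.3 CPM against 14.7 CPM (3 UMIs), and Astro 165.4, 154.1 and 141.5 CPM against 84.4 CPM (73 UMIs). The ranges of these types overlapped in the injured animals. The ratio of pooled levels was 12.9 in Endo (95% counting interval 4.41 to 62.7, adjusted p = 0.00828, edgeR) and 36.9 in OPC (6.61 to 1459, adjusted p = 0.0368, edgeR). The Endo call was lost with library-size scaling (adjusted p = 0.0181, edgeR), RLE factors (adjusted p = 0.0112, edgeR) and thinning (adjusted p = 0.0122, edgeR). IGFBP2 was called in the fibroblast-marker nuclei (229.1 to 415.9 CPM against 1 control UMI, adjusted p = 0.00239, edgeR). It was not called in Endo without a fibroblast marker (84.2 to 189.3 CPM against 23.6 CPM, adjusted p = 0.257, edgeR). That control value rests on 1 UMI, and the ratio there was 5.16 (95% counting interval 0.92 to 204).

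In OPC nuclei without GFAP, IGFBP2 stood at 170.0 to 183.0 CPM in the injured animals against 1 control UMI, and there it passed the threshold (ratio 32.9, interval 5.88 to 1303, adjusted p = 0.00431, edgeR). The share of OPC nuclei with an IGFBP2 UMI was 43.0% ± 3.44 (SD, n = 3) against 0.58%, and 15.0% ± 3.55 against 1.25% at 1000 UMIs per nucleus. Astro showed a smaller difference, 41.1% ± 7.41 against 10.1% at full depth and 13.3% ± 0.976 against 8.84% when thinned. Its log2 fold change was 0.97 (SE 0.21, adjusted p = 0.0281, edgeR).

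Among neurons IGFBP2 belonged to ExN, at 82.9, 64.5 and 73.7 CPM in the injured replicates and 43.9 CPM in control, with 13.2 to 17.3 CPM against 5.8 CPM in InN. Oligo held 22.8 to 26.3 CPM against 14.1 CPM and Microglia 19.8 to 26.7 CPM against 8.0 CPM on 1 UMI. Nuclei with CUX2, a gene of upper-layer neurons, held 105.1, 85.9 and 97.2 CPM in the injured replicates and 59.7 CPM in control. Those with FOXP2, a gene of deep-layer neurons, held 31.1, 12.4 and 20.0 CPM and 14.4 CPM. IGFBP5 had the same order, 42.1, 21.6 and 32.1 CPM with CUX2 against 13.6, 6.3 and 11.1 CPM with FOXP2, and 11.2 against 6.0 CPM in control. IGFBP4 had the opposite order, 14.4, 9.6 and 17.8 CPM with CUX2 against 47.1, 32.9 and 48.2 CPM with FOXP2, and 4.5 against 15.9 CPM in control. Each order held in all 4 libraries. IGFBP2 and IGFBP5 are next to each other among the protein-coding genes of the RefSeq annotation of calJac240_pri, a later assembly than the one counted on.

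IGFBP5, a carrier that binds matrix and cell surfaces, lay below control in Endo and OPC and above it in Astro, ExN and Oligo in every injured animal. Endo held 196.5, 201.7 and 151.9 CPM in the injured replicates and 916.2 CPM (187 UMIs) in control. OPC held 36.9, 39.8 and 52.4 CPM against 272.8 CPM (51 UMIs). Astro held 66.8, 54.3 and 55.6 CPM against 20.8 CPM (18 UMIs). In none of these did an injured animal overlap control. Endo was called (-2.19, SE 0.22, adjusted p = 0.00074, edgeR). OPC (-2.52, SE 0.29, adjusted p = 0.0185, edgeR) and Astro (1.61, SE 0.30, adjusted p = 0.0174, edgeR) were not. In Astro the level went with GFAP, at 62.3 to 85.2 CPM in nuclei with a GFAP UMI and 22.4 to 36.5 CPM without, against 88.4 and 11.8 CPM in control (9 UMIs each), and 52.7% to 73.8% of injured and 11.4% of control Astro had one. Those shares were not at equal depth, with a median of 1183 UMIs in control Astro and 2903 to 5279.5 in the injured animals. ExN held 16.8 to 29.0 CPM against 9.7 CPM (1.36, SE 0.31, adjusted p = 0.025, edgeR) and Oligo 7.5 to 11.3 CPM against 6.3 CPM on 8 UMIs (0.63, SE 0.55, adjusted p = 0.468, edgeR). InN, at 10.3 to 26.4 CPM, overlapped control at 15.6 CPM, and Microglia held 5.2 to 7.4 CPM against 0 UMIs. In control Microglia 3 UMIs would make 24.1 CPM, so control could not resolve that level.

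The injury effect on IGFBP5 differed between cell types. It was lower in Endo than in the mean of the other 6 types by -3.73 on the log2 scale (adjusted p = 0.00036, edgeR, 3.38% of genes called) and in OPC by -4.07 (adjusted p = 0.0089, edgeR, 0.190% of genes called). The mean includes Microglia, which held 0 control UMIs. Without Microglia the values were -2.32 (adjusted p = 0.0002, edgeR) and -2.82 (adjusted p = 0.0057, edgeR). Between single types, Astro exceeded Endo by 3.76 (adjusted p = 0.00021, edgeR, 3.28% of genes) and OPC by 4.05 (adjusted p = 0.0036, edgeR, 0.0609% of genes), and InN exceeded Endo by 2.39 (adjusted p = 0.0044, edgeR). Without injured replicate 3 the difference of Astro from OPC (adjusted p = 0.0243, edgeR) and that of InN from Endo (adjusted p = 0.0362, edgeR) were no longer called. The 3 pairs were chosen after the values were seen.

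The Endo difference in IGFBP5 stood beside the lower fibroblast markers described for IGF1, and its size varied between the marker classes. In fibroblast-marker nuclei it was at 509.5, 1119.8 and 542.9 CPM in the injured replicates and 1034 CPM in control (110 UMIs), which overlapped (-0.45, SE 0.44, adjusted p = 0.554, edgeR). Nuclei with endothelial markers alone held 40.1, 14.5 and 79.9 CPM against 44.6 CPM on 1 control UMI. Nuclei with markers of several kinds (1835 injured, 40 control) held 112.8 to 205.9 CPM against 662.2 CPM (37 UMIs). Each injured animal lay below control in that class, which was not tested. Endo nuclei without a fibroblast UMI held 24.1 to 42.7 CPM against 942.1 CPM on 40 UMIs, and were called (-4.27, SE 0.40, adjusted p = 0.00067, edgeR). Of those 40 UMIs, 39 came from the 17 control nuclei with none of the vascular markers (2073 CPM). The 46 control nuclei of that subset held 42459 UMIs in all. Why 17 of them held none of the markers was not tested. At 1000 UMIs per nucleus 8.29% ± 0.333 (SD, n = 3) of injured and 42.4% of control Endo nuclei had an IGFBP5 UMI. For OPC the makeup measured by GFAP left the direction in place, with 38.5 to 79.1 CPM in injured nuclei without GFAP against 272.8 CPM (-2.15, SE 0.36, adjusted p = 0.0278, edgeR).

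**Figure D4:**
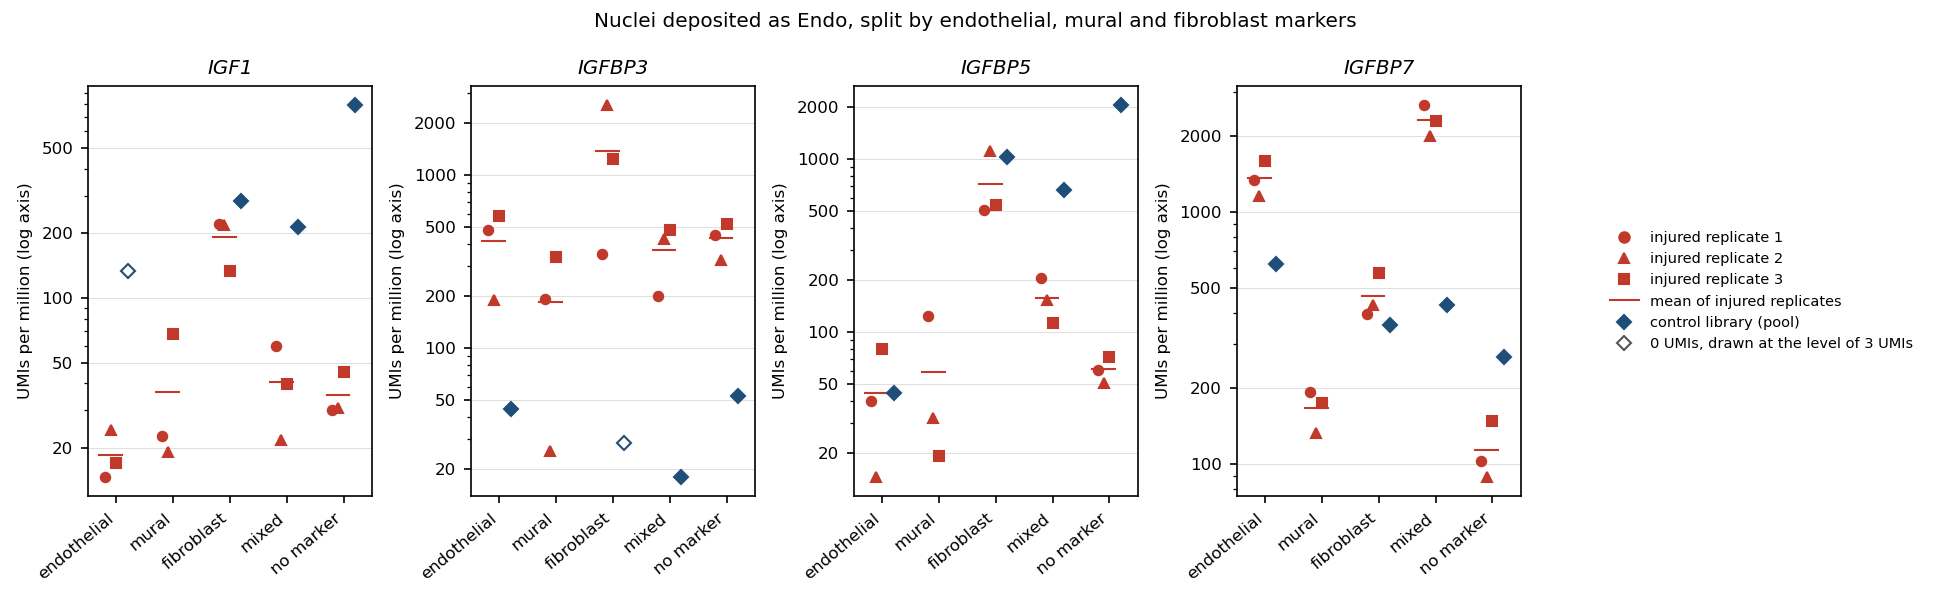
Level of 4 genes (CPM, log axis) in Endo nuclei with endothelial, mural or fibroblast markers alone, with markers of several kinds (mixed) and with none, symbols as in the plot of levels by cell type. Control is shown where it had at least 10 nuclei. In fibroblast nuclei IGFBP5 of the injured animals (509.5 to 1119.8) overlapped control (1034), and IGFBP3 reached 2569 in injured replicate 2. In mixed nuclei IGFBP5 was at 112.8 to 205.9 in the injured animals and 662.2 in control.

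IGFBP7 was highest in Endo, a level that is no finding since the authors used this gene to name the cluster, and next in Astro, where it exceeded Oligo 8.6-fold in the injured animals. Astro held 226.1, 351.6 and 280.3 CPM in the injured replicates and 72.8 CPM (63 UMIs) in control. Endo held 1745, 1348 and 1784 CPM against 406.7 CPM (83 UMIs). No injured animal overlapped control in either type. The log2 fold change was 2.09 in Astro (SE 0.32, adjusted p = 0.00886, edgeR) and 2.13 in Endo (SE 0.30, adjusted p = 0.00241, edgeR). Since IGFBP7 helped to name Endo, neither its Endo call nor a comparison with Endo was independent of that naming. The effects of Astro and Endo differed by -0.06 (SE 0.42, adjusted p = 1.0, edgeR).

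The share of Astro nuclei with an IGFBP7 UMI was 43.9% ± 1.65 (SD, n = 3) in the injured animals and 8.25% in control (95% interval 6.16 to 10.8). At 1000 UMIs per nucleus it was 18.7% ± 3.61 and 6.08%. Microglia had 8.76% ± 2.88 at full depth and 3.03% when thinned. In nuclei with a GFAP UMI the level was 260.8, 404.1 and 305.0 CPM against 117.8 CPM in control (12 UMIs). In those without it was 142.2, 276.5 and 186.6 CPM against 66.8 CPM (51 UMIs). Injured astrocytes thus lay above control with and without GFAP, and the nuclei with GFAP held more than those without in each animal. Summed endothelial markers in Astro were 91.1 to 101.5 CPM against 72.8 CPM in control (6 of the 7 measured were higher in each injured animal, and CDH5 and ESAM were at 0 in control), summed mural markers 149.3 to 166.8 CPM against 241.6 CPM, and the part of other cells in the result was not tested. The call was lost among nuclei with at most 2500 genes (1.77, adjusted p = 0.0272, edgeR).

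In Endo the IGFBP7 difference varied between the marker classes. Nuclei with endothelial markers alone held 1348, 1160 and 1596 CPM against 624.7 CPM in control (14 UMIs), and fibroblast-marker nuclei 395.1, 429.9 and 576.8 CPM against 357.3 CPM. Nuclei with markers of several kinds held 2000 to 2675 CPM against 429.6 CPM (24 UMIs). Those with no marker went the other way, at 88.9 to 148.5 CPM against 265.8 CPM (5 UMIs). Neither the fibroblast-marker nuclei (0.46, SE 0.39, adjusted p = 0.496, edgeR) nor the nuclei without a fibroblast marker (2.06, SE 0.45, adjusted p = 0.0345, edgeR) were called. The remaining types held 17.6 to 47.0 CPM in the injured animals, and 0 UMIs in control Microglia and OPC. Pooled over the injured animals, the OPC level was at least 2.01-fold and the Microglia level at least 1.17-fold higher than control. In Microglia, injured replicate 1 (22.3 CPM) lay below the 24.1 CPM that 3 control UMIs would make. Neither OPC and Microglia nor ExN (1.31, adjusted p = 0.0123, edgeR), InN (1.44, adjusted p = 0.0189, edgeR) and Oligo (2.68, adjusted p = 0.0392, edgeR) were called, and the part of free transcripts in these levels was not tested.

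IGFBP4, a carrier that mostly inhibits IGF1 and is cut by PAPPA, was called in no cell type. It was higher in each injured animal than in control in all 7, an order whose share among all genes is not given here. Endo held 284.5, 103.7 and 322.0 CPM against 68.6 CPM (14 UMIs) and replicate 2 lay nearest to control (log2 fold change 1.91, SE 0.78, adjusted p = 0.124, edgeR). OPC held 57.9, 67.9 and 75.2 CPM against 42.8 CPM (8 UMIs) and InN 46.0, 31.1 and 38.4 CPM against 17.8 CPM (55 UMIs, 1.19, SE 0.27, adjusted p = 0.0176, edgeR). Astro, with 10.3 to 13.8 CPM against 0 UMIs, was at least 3.47-fold higher (adjusted p = 0.0218, edgeR). ExN held 15.1 to 28.6 CPM against 7.3 CPM, Oligo 8.7 to 33.3 CPM against 3.1 CPM on 4 UMIs and Microglia 16.9 to 29.0 CPM against 8.0 CPM on 1 UMI. SST interneurons, at 79.8 to 159.6 CPM, exceeded PVALB interneurons, at 13.9 to 17.7 CPM, in each injured animal. Control did not show this order, with 0 UMIs in its 30 SST nuclei and 7.5 CPM (5 UMIs) in PVALB nuclei.

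**Figure D5:**
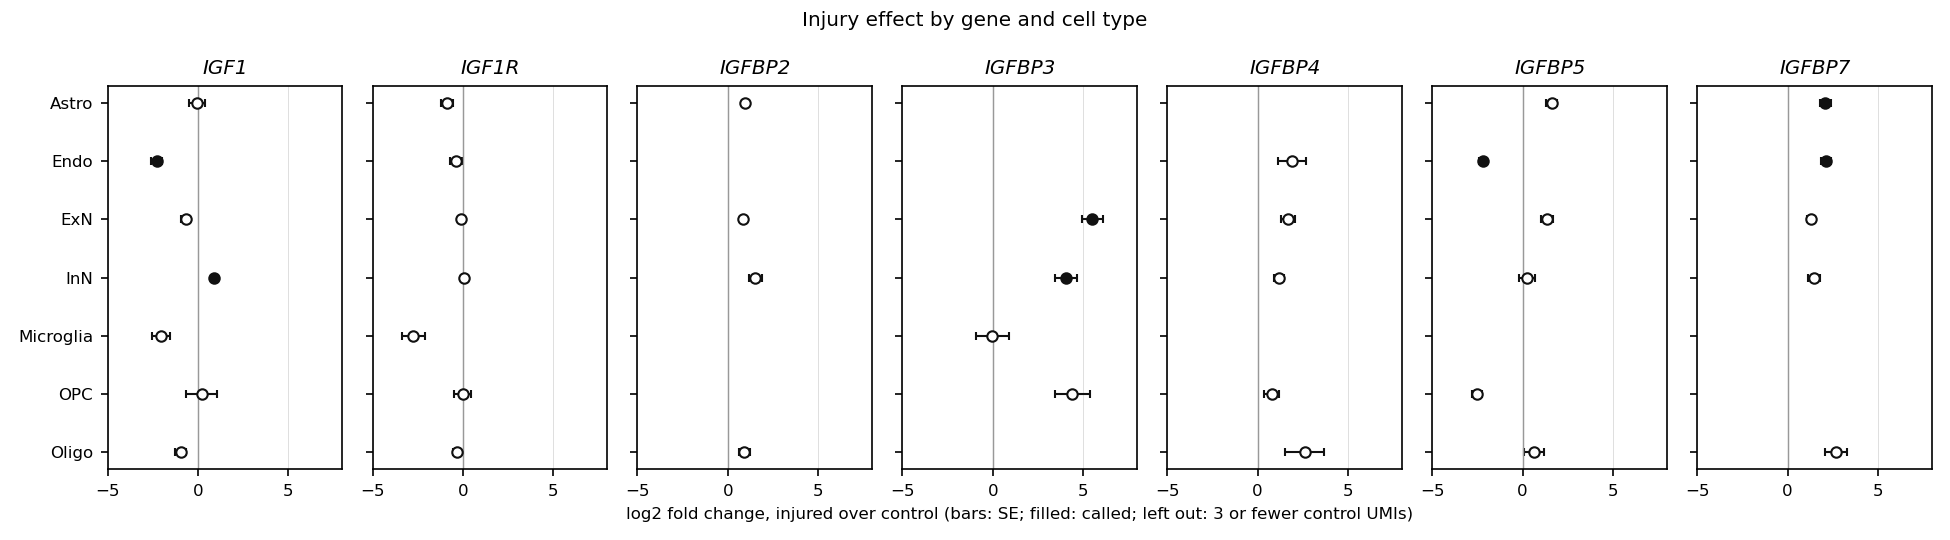
Log2 fold change of injured over control for each gene and cell type, with its SE (edgeR). Filled circles were called and open ones were not, and combinations with 3 or fewer control UMIs are left out. The combinations left out include the calls of IGFBP3 in Oligo and Endo and of IGFBP2 in Endo. IGFBP5 lay at -2.19 in Endo and -2.52 in OPC but at 1.61 in Astro, and IGF1R stayed without a call in all 7 types.

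The wider IGF system was counted over 58 genes in 6 lists, which gave 299 tested combinations with 14 called higher and 2 lower. Over all genes and the 7 cell types together, 2.35% of combinations were called. The 7 genes described above made 10 of these calls. Of the receptors IGF1R, IGF2R, INSR and INSRR, 0 of 24 combinations were called by edgeR, with 10 below an unadjusted p of 0.05, and of the signalling genes from the IRS adaptors to mTOR 0 of 147, with 42 below it. Among all genes, from 2279 of 11476 in OPC to 6085 of 15122 in ExN lay below it, so neither count is read as a result. Nothing is read from the count of 0 among so few combinations of receptors. The other 6 calls were in proteases and surface partners, and those in Endo stand beside the same difference in its marker genes. HTRA1, a protease that cuts binding proteins, rose in Endo (3.07, SE 0.42, adjusted p = 0.00228, edgeR) and Oligo (1.60, SE 0.21, adjusted p = 0.0089, edgeR). ADAMTS1, a matrix protease, stood at 134.4 to 265.4 CPM in Endo against 0 control UMIs (adjusted p = 0.00697, edgeR). ITGB1, the beta chain of integrins that bind IGFBP2 and other ligands, rose in Astro (2.48, SE 0.30, adjusted p = 0.00442, edgeR) and Endo (2.59, SE 0.29, adjusted p = 0.00105, edgeR). Its partner ITGA5 stood at 55.0 to 104.4 CPM in Astro against 1 control UMI (adjusted p = 0.00717, edgeR).

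The remaining ligands, receptors and carriers were not called. IGF2 was detected mainly in Endo, at 42.4 to 73.5 CPM against 156.8 CPM in control (-1.22, SE 0.39, adjusted p = 0.0609, edgeR), below control in each animal as IGF1 was. INSR, the insulin receptor, lay below control in each injured animal in Microglia, Endo, Astro, ExN and InN. It stood at 86.5 to 128.3 CPM in injured Microglia against 1229 CPM in control (-3.22, SE 0.23, adjusted p = 0.0172, edgeR). Endo held 206.8 to 260.6 CPM against 568.4 CPM (-1.11, SE 0.23, adjusted p = 0.0120, edgeR). OPC (306.5 to 407.0 CPM against 347.75 CPM) and Oligo (749 to 901 CPM against 758 CPM) overlapped control. IGF2R, which clears IGF2, stood at 132.4 to 158.3 CPM in Microglia against 64.3 CPM on 8 UMIs. IGF2R also lay above control in each injured animal in Astro, Oligo, Endo and OPC, and overlapped it in ExN and InN. IGFBP6, a carrier with preference for IGF2, stood at 50.2 to 59.1 CPM in Endo against 14.7 CPM on 3 UMIs. In ExN it stood at 13.4 to 21.1 CPM against 2.3 CPM on 40 UMIs (2.88, SE 0.40, adjusted p = 0.00509, edgeR). This passed the limits on p and fold and missed a call since at most 8.68% of a cohort's ExN nuclei held a UMI. INSRR, IGFALS and IGFBPL1 stood at 21.4 CPM or less, and IGFBPL1 was highest, in control OPC on 4 UMIs.

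The genes most like each of the 7 were taken as those of highest Pearson correlation of log level over the 28 sums of cell type and library, among 12593 genes. The sums share libraries and depth, so these are descriptions. IGF1 was nearest to CALB2 (0.82), a gene of VIP interneurons, CHST15 and SRGAP2. IGFBP3 was nearest to EMC10 (0.91), FKBP2 and MANF, genes of the endoplasmic reticulum. IGFBP5 was nearest to APCDD1 (0.95), EMP2 and PROSER2, and IGFBP7 to YBX3 (0.94), COL1A2 and NOTCH3. IGFBP2 was nearest to FXYD1 (0.88), PDLIM4 and CAV1, and IGF1R to ATP9A (0.90), ADCY5 and REPS2. IGFBP4 was nearest to THYN1 (0.84), COL6A2 and ENSCJAG00000005727, an identifier with no symbol in the table of gene names.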

How the data were processed

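The authors counted UMIs per gene and nucleus with Cell Ranger 3.1.0, using the calJac3 assembly and Ensembl gene models, and deposited these counts without normalization beside the cell type they gave each nucleus. Doublets of the injured animals had been taken out with Scrublet, and control nuclei had passed a Seurat filter on gene number. No nucleus was removed here and no doublet caller was run.

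For each cell type, the counts of a library were added up, and genes in both tables were compared with edgeR 4.0.16 in R 4.3.3 (TMM, filterByExpr, glmQLFit, glmQLFTest, Benjamini-Hochberg adjustment over all genes of a fit). With 1 control library, the spread came from the 3 injured animals and was assumed for control. Injured animals that all lay above or all below control are a description and no test. The share of all genes with such an order is not given. Differences in injury effect between cell types were tested in 1 fit over 28 sums with library as a block. Steps were tested on simulated counts with a set spread. There 26.0% of 2-fold and 95.0% to 98.0% of 4-fold changes were called in Astro and OPC. For differences between cell types, simulated in Astro, these were 10.0% and 85.0%. A missing call therefore does not show that a gene was unchanged. Shares have exact (Clopper-Pearson) 95% intervals, which like the ratios of counts cover counting error only, and were repeated after thinning nuclei to 1000 UMIs. A gene at 0 in control has a bound against 3 UMIs in that sum. Splits used a UMI of fixed markers. The 7 genes, the lists and the markers were chosen with earlier results of these data known. All 7 genes are described in every cell type, as are called genes of the IGF system lists and the 3 genes most like each. Of the 58 genes of those lists, INS, IGFBP1, PRSS23, IRS4, SHC1, GRB10, PIK3R2, PIK3R3 and ITGB3 were not matched by symbol, and PDPK1 and CD93 were matched in the injured table alone. Cell types were named from the same counts, so levels between types have no test. DESeq2 1.42.0, other scalings, no low-count filter, thinning, nuclei with at most 2500 genes and leaving out each injured animal were the main alternatives. Sequences were not analysed here.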

Additional observations from a re-analysis of the deposited data

Results flagged for a closer look

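The injury effect (log2 fold change of injured over control) of a pair of genes differed between cell types by a test of the difference itself in edgeR. For IGFBP5, the effect in Endo lay -3.73 from the mean of the other 6 types and that in OPC -4.07 from it. That mean includes Microglia, which held 0 control UMIs, and without Microglia both differences were smaller and still called. The IGFBP5 effect in Astro exceeded that in Endo by 3.76 and that in OPC by 4.05, and the effect in InN exceeded that in Endo by 2.39. For IGF1, the effect in InN exceeded that in Endo by 3.20. Without injured replicate 3, the IGF1 difference (3.04) and the IGFBP5 differences of InN from Endo (2.17), of Astro from OPC (4.29) and of OPC from the other types (-4.26) were no longer called. The differences that involve Endo stand beside a lower fibroblast marker level in injured Endo (1394 to 2676 CPM) than in control Endo (5488 CPM). Within the fibroblast-marker nuclei neither IGF1 (-0.51) nor IGFBP5 (-0.45) was called. In Endo nuclei with markers of several kinds both genes lay below control in each injured animal, which was not tested. The differences that involve OPC stand beside GFAP in 25.3% to 51.1% of injured and 0% of control OPC nuclei, and among OPC nuclei without GFAP IGFBP5 was at -2.15. Neither the fibroblast-marker nor the GFAP classes were formed at equal depth.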

How the results depend on the processing

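Calls of injured against control numbered 10 and were 9 with library-size scaling or RLE factors, 12 without a low-count filter, 8 among nuclei with at most 2500 genes, 18 with DESeq2, 5 of 48 at 1000 UMIs per nucleus and 21 at an adjusted p of 0.05. The 10 original calls were kept with DESeq2, without the filter and at 0.05. Leaving out an injured animal gave 8 to 23 calls, the most without replicate 2, when all 10 were kept. Calls of a difference between cell types numbered 2 and were 1 when thinned, 4 at 0.05, 3 without Microglia and 1 to 2 when an animal was left out, with 1 without replicate 3 since OPC IGFBP5 then missed the threshold. Without the library block they were 2. For the injury effects of single genes, 483 of 559 alternative values kept direction and call, 20 lost a call, 40 gained one and 16 changed sign, each in a gene and type that was not called. These were IGF1 in OPC (-0.16 thinned, -0.23 to 0.42 leaving out an animal), IGF1 in Astro (-0.26 to 0.061), IGF1R in OPC (0.12 thinned, 0.050 unfiltered, 0.058 without GFAP nuclei, -0.15 to 0.058), IGF1R in Astro (0.53 thinned), IGF1R in InN (-0.027 by library size), IGF1R in Endo (0.10 in fibroblast-marker nuclei), IGFBP3 in Microglia (0.16 at 2500 genes, -0.40 to 0.18) and IGFBP5 in InN (-0.11 to 0.52). The cause was not tested. With 124463 UMIs in control Microglia and 186916 in control OPC, genes there rest on few counts. No paired analysis was possible because the control library pools its animals and shares no animal with the injured ones. Subsets of Endo and OPC, the fits without Microglia and the pairs of cell types were added after the data were seen.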
